A study of Mus musculus with 36 samples.

Results

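The insulin-like growth factor (IGF) genes were followed in the cerebellum and the hippocampus of *Pogz*-deficient mice to ask whether receptors and binding proteins moved with the 2 ligands. The set was chosen by gene symbol and holds 10 of the 24421 genes in each count table: the ligands *Igf1* and *Igf2*, the receptors *Igf1r* and *Igf2r*, and the binding proteins *Igfbp2* to *Igfbp7*. All 10 were found in both tables, and all 10 passed the filter on low values in both tissues. Poly(A) RNA was sequenced from both tissues of the same 18 adult C57Bl/6 mice, with 3 males and 3 females per genotype. Animals are named by the sample numbers of the labels. Control mice carried 2 floxed *Pogz* alleles without Cre (Pogzfl/fl). *Pogz* cKO+/- mice (NesCre/+; Pogzfl/+) and cKO-/- mice (NesCre/+; Pogzfl/fl) carried Cre under the control of *Nestin*, whose promoter acts in neural progenitors, so that their descendants inherit the recombined allele. Both mutant genotypes carried Cre and no control did, so that in the step from control to mutant the effects of Cre and of *Pogz* loss cannot be told apart. *Pogz* itself, on chromosome 3 of GRCm38, had a log2 change per allele lost of -0.30 in the cerebellum and -0.28 in the hippocampus (adjusted p = 0.000356 and 1.79e-07, edgeR). Reads were counted over the gene as a whole, floxed exons included.

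IGF1 and IGF2 are secreted peptides that promote growth and survival by binding the receptor tyrosine kinase encoded by *Igf1r*. The receptor encoded by *Igf2r* is the cation-independent mannose 6-phosphate receptor, which takes up IGF2 and delivers it to lysosomes. The binding proteins hold IGFs outside the cell and can limit or prolong their action, with *Igfbp7* the family member of lowest IGF affinity. In the adult brain, *Igf2* and *Igfbp2* are known as genes of the meninges and the choroid plexus, and *Igf1* is made by neurons and by non-neuronal cells. *Igf2* is imprinted and expressed mainly from the paternal copy, with *H19* as its neighbour expressed from the maternal copy.

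Positions are those of the count tables on GRCm38. *Igf1* lies on chromosome 10 from 87859056 to 87937047 and *Igf2* on chromosome 7 from 142650768 to 142661035. *Igf1r* lies on chromosome 7 from 67952257 to 68233667 and *Igf2r* on chromosome 17 from 12682406 to 12769706. *Igfbp2* (chromosome 1, 72824480 to 72852471) and *Igfbp5* (chromosome 1, 72858065 to 72874865) are neighbours on opposite strands with 5593 bases between their counted ends. The exons of *Igf2* share 98 bases (2.31%) with *Igf2os* on the opposite strand, which stayed at 1.22 CPM or less in every library. The exons of *Igfbp7* share 178 bases (14.7%) with *Polr2b* on the opposite strand. Since the sources used here do not state whether counting used strand, reads from those shared stretches cannot be assigned to one gene.

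Promoter windows are shown for the 4 genes that passed the test in the cerebellum, at those RefSeq start sites (GRCm38.p6) that lie within the counted genes. RefSeq gave *Igf2* 4 start sites, of which 2 lie within the counted gene. A further *Igfbp2* window, at the start site 72825387, held neither motif and is not shown. Each window runs 5′ to 3′ in the direction of transcription, with 250 bases before the start site and 50 after it. Capitals mark GGGCGG, the core of the GC box bound by Sp1 family factors, on either strand (CCGCCC on the other). Of 32851 windows of that length in the table, 35.7% held GGGCGG on one strand or the other.
Igf1, chr10:87860861-87861160, plus strand: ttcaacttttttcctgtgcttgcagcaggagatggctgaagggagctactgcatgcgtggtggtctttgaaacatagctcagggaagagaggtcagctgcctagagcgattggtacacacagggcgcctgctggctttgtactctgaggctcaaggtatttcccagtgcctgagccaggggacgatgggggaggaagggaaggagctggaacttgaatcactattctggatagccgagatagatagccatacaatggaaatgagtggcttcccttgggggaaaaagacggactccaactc
Igf2, chr7:142658755-142659054, minus strand: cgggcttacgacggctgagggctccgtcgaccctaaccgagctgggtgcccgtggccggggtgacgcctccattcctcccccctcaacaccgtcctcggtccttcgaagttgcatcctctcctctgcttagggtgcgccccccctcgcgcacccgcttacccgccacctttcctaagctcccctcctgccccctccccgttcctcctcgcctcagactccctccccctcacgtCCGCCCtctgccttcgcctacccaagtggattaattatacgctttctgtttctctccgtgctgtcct
Igf2, chr7:142657447-142657746, minus strand: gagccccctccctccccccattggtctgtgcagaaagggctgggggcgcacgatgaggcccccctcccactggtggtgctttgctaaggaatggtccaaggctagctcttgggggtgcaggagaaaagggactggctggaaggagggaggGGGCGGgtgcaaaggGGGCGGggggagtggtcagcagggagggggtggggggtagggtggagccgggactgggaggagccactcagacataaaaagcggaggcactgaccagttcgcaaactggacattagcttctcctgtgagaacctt
Igfbp2, chr1:72824230-72824529, plus strand: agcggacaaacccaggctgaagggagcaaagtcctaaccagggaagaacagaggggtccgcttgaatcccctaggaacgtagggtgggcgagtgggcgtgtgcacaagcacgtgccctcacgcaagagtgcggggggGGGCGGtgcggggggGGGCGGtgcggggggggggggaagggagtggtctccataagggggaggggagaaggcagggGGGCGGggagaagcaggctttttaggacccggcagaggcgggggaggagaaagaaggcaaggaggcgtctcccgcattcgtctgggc
Igfbp5, chr1:72874816-72875115, minus strand: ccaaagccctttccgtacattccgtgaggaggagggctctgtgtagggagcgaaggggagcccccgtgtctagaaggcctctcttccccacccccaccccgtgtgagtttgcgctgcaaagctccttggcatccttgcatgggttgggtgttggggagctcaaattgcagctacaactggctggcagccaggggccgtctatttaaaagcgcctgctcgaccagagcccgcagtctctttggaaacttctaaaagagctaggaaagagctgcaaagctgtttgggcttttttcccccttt
The *Igfbp2* window held 3 GGGCGG matches, and the 2 *Igf2* windows held 1 and 2. The windows of *Igf1* and *Igfbp5* held none. The TATA box letters TATAAA, searched on both strands, stood in none of these 5 windows, against 13.6% of all windows. The number of CpG pairs was 6 in the *Igf1* window, 24 and 7 in the *Igf2* windows, 18 in the *Igfbp2* window and 10 in the *Igfbp5* window, where the median of all windows was 7. A match says only that these letters are present.

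Library totals ran from 21421800 to 32544900 counts in the cerebellum and from 17609300 to 45544200 in the hippocampus. The hippocampal library of cKO-/- animal Sample_1160 stood apart and was left out of the fit, and results with it are given beside those without. The study also excluded an outlier RNA sample, which the sources used here do not name. *Ttr*, the transthyretin gene of choroid plexus epithelium, differed between libraries: it was above 100 CPM in 3 cerebellar libraries (0 controls, 2 cKO+/-, 1 cKO-/-) and in 6 hippocampal libraries (2 of each genotype). The hippocampal library of control Sample_1129, one of those 6, also held *Gabra6*, a gene of cerebellar granule cells, at 49.4 CPM, against 1.09 CPM or less in the other 17 hippocampal libraries. Among the cerebella, those of cKO-/- animals Sample_1371, Sample_1379 and Sample_1385 stood apart from the other 15 in summed inhibitory neuron markers. These were at 2339, 2264 and 2281 CPM, where the other 15 had 1770 CPM or less. By mean log2 level of the same markers Sample_1371, at 4.76, lay within the controls (4.44 to 4.89), and cKO+/- animal Sample_1433 was at 5.96. The summed granule cell markers of the 3 were at 3518, 3806 and 2914 CPM, where controls had 4806 to 5746. Among cKO+/- mice (3307 to 6179) the lowest, at 3307, was Sample_1433. Cerebellar results without the 3 cKO-/- animals are given beside those with them. In whole tissue, fewer cells of a type and less RNA per cell cannot be told apart.

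Levels were first compared between the tissues of the 6 control mice, per kilobase of exon so that genes of different length can be set side by side. In the control cerebellum *Igfbp5* was highest, at 46.5 ± 9.41 CPM per kilobase (SD, n = 6), followed by *Igf2* at 26.6 ± 4.86, *Igfbp7* at 17.9 ± 2.81 and *Igfbp2* at 15.6 ± 3.59. *Igfbp5* did not overlap *Igf2* in range (38.9 to 64.4 against 21.1 to 32.7), whereas *Igfbp7* and *Igfbp2* overlapped. *Igfbp6* (10.3 ± 1.40), *Igf2r* (9.85 ± 1.38), *Igf1r* (8.18 ± 0.790) and *Igfbp3* (7.62 ± 0.887) formed an overlapping series, with *Igfbp4* at 5.51 ± 1.79. *Igf1* was lowest at 1.37 ± 0.108, with no overlap with any other member.

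In the hippocampus of the same mice *Igfbp4*, which encodes a binding protein that inhibits IGF action until it is cleaved, was at 50.8 ± 8.21 CPM per kilobase and overlapped *Igfbp5* at 40.2 ± 3.75. *Igfbp2* (13.1 to 91.0), *Igf2* (7.22 to 54.1) and *Igfbp7* (8.91 to 21.7) overlapped one another, *Igf1r*, *Igf2r*, *Igfbp6* and *Igfbp3* had means of 6.93, 6.92, 6.22 and 6.06, and *Igf1* was again lowest at 1.08 ± 0.126. *Igfbp4* was 9.30-fold higher there than in the cerebellum (log2 difference 3.22, SE 0.127, adjusted p = 5.67e-11, edgeR's quasi-likelihood test, adjusted by Benjamini-Hochberg), and higher in 6 of 6 animals. Its hippocampal range, 40.2 to 61.0, lay far above the cerebellar range of 3.61 to 8.90. The edgeR test did not pair the tissues of an animal. Over all genes 71.9% differed between the control tissues by it, and 7 of the 10 members did. The other 6 were lower in the hippocampus. *Igf1* was lower by a log2 difference of -0.34 (SE 0.093, adjusted p = 0.00494, edgeR quasi-likelihood test), in 6 of 6 animals. *Igf2r* was lower by -0.51 (SE 0.095, adjusted p = 0.000292, same test) and *Igfbp6* by -0.75 (SE 0.179, adjusted p = 0.00191). *Igfbp7* was lower by -0.57 (SE 0.190, adjusted p = 0.0151), *Igf1r* by -0.24 (SE 0.068, adjusted p = 0.0066) and *Igfbp3* by -0.34 (SE 0.129, adjusted p = 0.0299).

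The level of *Igf2* in the control hippocampus was split. Control animals Sample_1155, Sample_1172, Sample_1192 and Sample_1190 had 29.5, 33.3, 34.0 and 44.2 CPM, whereas Sample_1170 had 113 and Sample_1129 had 224. *Igfbp2* split in the same animals, with 16.8, 19.7, 17.2 and 20.2 CPM in the first 4, 55.7 in Sample_1170 and 118 in Sample_1129. *Ttr* was at 2169 CPM in Sample_1170 and 4557 CPM in Sample_1129, and at 8.56 CPM or less in the other 4. Over all 6 animals neither gene differed between the tissues (*Igf2* log2 difference -0.69, adjusted p = 0.194; *Igfbp2* 0.79, adjusted p = 0.142, edgeR quasi-likelihood test). Without the libraries above 100 CPM of *Ttr*, *Igf2* was lower in the hippocampus by -1.69 (adjusted p = 1.23e-07, same test) and *Igfbp2* stood at -0.16 (adjusted p = 0.351), while *Igf1r* (-0.18, adjusted p = 0.0643) and *Igfbp3* (-0.30, adjusted p = 0.0697) no longer passed. Leaving out control Sample_1129 alone also brought *Igf2* past the threshold (-1.24, adjusted p = 0.0066). *Igfbp3* was lost without Sample_1155, Sample_1190 or Sample_1192, and *Igfbp7* without Sample_1190 or Sample_1192. The plot of control levels shows the high *Igf2* and *Igfbp2* points.

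**Figure D1:**
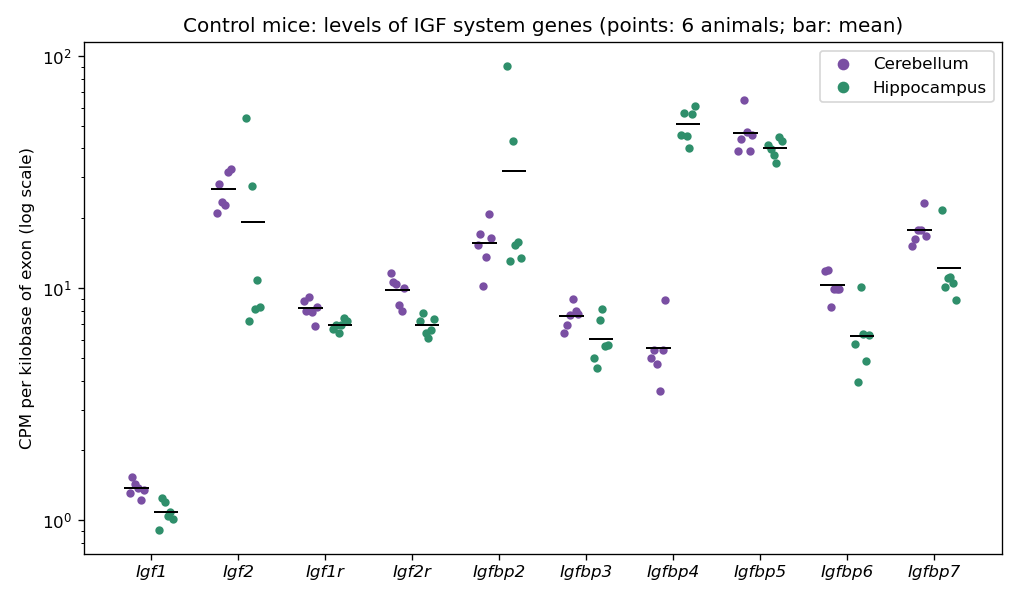
Levels of the 10 genes in the 6 control mice, in CPM per kilobase of exon on a log axis, with a point per animal and a bar at the mean. *Igfbp4* is 9.30-fold higher in the hippocampus than in the cerebellum, and hippocampal *Igf2* and *Igfbp2* each have 2 animals far above the other 4.

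Loss of *Pogz* was accompanied by higher levels of both ligands in the cerebellum. Of the 10 members, 4 passed an FDR of 0.05 in the model with sex and the number of alleles lost: *Igf1*, *Igf2* and *Igfbp2* rose and *Igfbp5* fell. Over all 14027 genes tested 13.7% passed, 7.11% upward and 6.55% downward. The median log2 change per allele was 0.12 over the 10 members and 0.00087 over all genes.

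*Igf2* changed with the smallest p among the members. Control cerebella had from 92.0 to 142 CPM (median 112), cKO+/- cerebella from 148 to 264 (median 206), and cKO-/- cerebella from 160.3 to 320.2 (median 278). Every mutant of either genotype lay above every control, a separation whose share over all genes was not counted. The log2 change per allele was 0.58 (SE 0.084, 1.49-fold, adjusted p = 0.000213, edgeR's quasi-likelihood test, adjusted by Benjamini-Hochberg). Compared with controls as separate groups, *Igf2* rose by 0.84 in cKO+/- mice (SE 0.151, adjusted p = 0.0117) and by 1.15 in cKO-/- mice (SE 0.152, adjusted p = 8.8e-05, edgeR quasi-likelihood test). Only 0.342% of genes passed in the comparison of cKO+/- mice with controls, and *Igf2* was the 1 member among them. In cKO-/- mice against controls 12.7% of genes passed, and the members that did were *Igf1*, *Igf2*, *Igfbp2* and *Igfbp5*.

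*Igf1* rose with allele loss as well. Controls ranged from 9.92 to 12.3 CPM (median 11.01), cKO+/- mice from 10.99 to 18.3 (median 12.3) and cKO-/- mice from 13.5 to 24.7 (median 17.04). All 6 cKO-/- cerebella lay above all 6 controls, and the cKO+/- range overlapped both. The log2 change per allele was 0.34 (SE 0.070, 1.27-fold, adjusted p = 0.00411, edgeR quasi-likelihood test). *Igf1* and *Igf2* were the 2 members whose cKO-/- and control values did not overlap, as was the case for 4.58% of all genes.

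*Igfbp2*, which encodes one of the main binding proteins of cerebrospinal fluid, rose with a wide spread. Controls ranged from 13.9 to 28.9 CPM (median 21.7), cKO+/- mice from 24.2 to 86.7 (median 28.2) and cKO-/- mice from 23.9 to 90.9 (median 44.4). The 3 highest values, in cKO+/- animals Sample_933 and Sample_1433 and cKO-/- animal Sample_936, came from the 3 cerebella with *Ttr* at 2177, 2935 and 2807 CPM. The log2 change per allele was 0.60 (SE 0.161, adjusted p = 0.0212, edgeR quasi-likelihood test), and 0.47 (SE 0.096, adjusted p = 0.00647) without those 3 libraries. The call was lost without animal Sample_936 (0.54, adjusted p = 0.0543) or without animal Sample_1385 (0.54, adjusted p = 0.064).

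*Igfbp5*, the neighbour of *Igfbp2* and the most abundant binding protein gene of the cerebellum, moved the other way. Controls ranged from 235 to 387 CPM (median 269), cKO+/- mice from 209 to 291 (median 254) and cKO-/- mice from 202 to 252 (median 219.8). The ranges overlapped, and the log2 change per allele was -0.16 (SE 0.049, adjusted p = 0.0389, edgeR quasi-likelihood test). The highest control was animal Sample_1170. Leaving out any 1 of 8 animals took the adjusted p above 0.05 (controls Sample_1155, Sample_1170, Sample_1172 and Sample_1192, and cKO-/- animals Sample_1219, Sample_1371, Sample_1379 and Sample_1385). The change lay between -0.19 and -0.11 over all 18 omissions.

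Neither receptor passed in the cerebellum. Cerebellar *Igf1r* ranged from 86.1 to 113 CPM in controls, from 82.2 to 106 in cKO+/- mice and from 61.9 to 98.2 in cKO-/- mice. Its log2 change of -0.13 (SE 0.053, 95% interval from -0.24 to -0.02) did not pass (adjusted p = 0.103, edgeR quasi-likelihood test). *Igf2r* stood at -0.09 (95% interval from -0.23 to 0.05, adjusted p = 0.389). The low *Igf1r* and *Igf2r* values of the cKO-/- group came from animals Sample_1379, Sample_1385 and Sample_1371, the 3 with high summed inhibitory neuron markers. Without them *Igf1r* stood at -0.02 (SE 0.036, adjusted p = 0.7) and *Igf2r* at 0.05 (SE 0.048, adjusted p = 0.574, same test). That fit kept cKO+/- animal Sample_1433, with summed granule cell markers at 3307 CPM and *Igf1r* at 82.2 CPM, below every control.

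*Igfbp3*, *Igfbp4*, *Igfbp6* and *Igfbp7* did not pass in the cerebellum. Their log2 changes per allele were 0.08, 0.15, 0.18 and 0.05, with 95% intervals from -0.04 to 0.21, from -0.10 to 0.41, from -0.04 to 0.40 and from -0.08 to 0.19. Leaving out 1 animal at a time moved them from 0.04 to 0.12, from 0.05 to 0.22, from 0.08 to 0.24 and from 0.02 to 0.10. The lowest values came without Sample_1385 (*Igfbp3* and *Igfbp4*), Sample_1379 (*Igfbp6*) and Sample_936 (*Igfbp7*). For *Igfbp6*, which encodes a binding protein that prefers IGF2, cKO-/- animals Sample_1160 and Sample_1219 were at 8.48 and 9.96 CPM, below every control, and the other 4 cKO-/- animals at 19.2 to 27.3, above every control. In 9 of the 10 members the mean log2 level of cKO+/- mice lay between those of the other 2 genotypes, with *Igfbp7* the exception. In the hippocampus the exceptions were *Igfbp3*, *Igfbp5*, *Igfbp6* and *Igfbp7*. The share of all genes with this order was not counted, and most members did not pass.

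**Figure D2:**
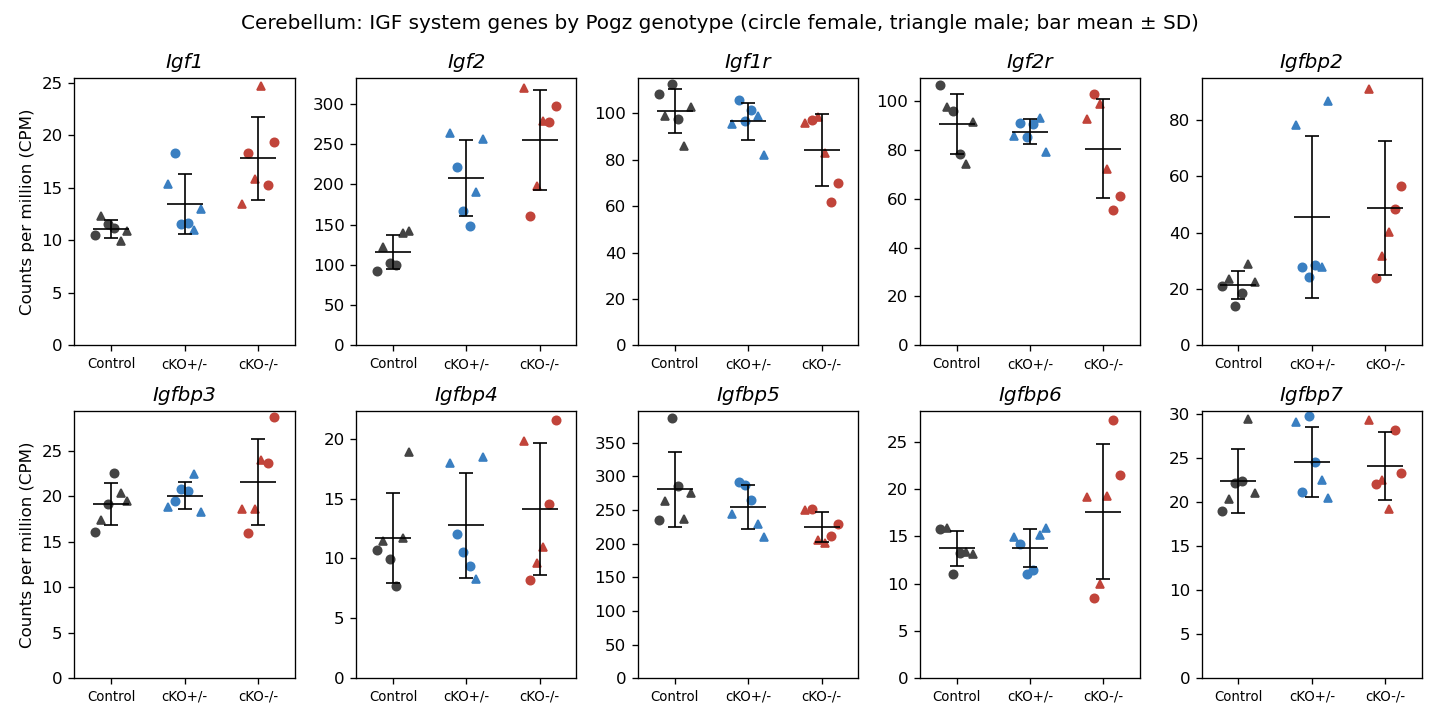
CPM of the 10 genes in 18 cerebella by *Pogz* genotype, with circles for females, triangles for males and bars for the mean ± SD of 6 animals. All mutant *Igf2* values lie above the highest control at 142 CPM, while the *Igfbp2* groups overlap and each mutant group has values above 78 CPM.

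Animal numbers were not spread evenly over the genotypes. Those outside Sample_1120 to Sample_1219 belonged to 3 cKO+/- mice, 4 cKO-/- mice and no control, and the labels do not say what the numbers mark. They include all cerebella with *Ttr* above 100 CPM (Sample_933, Sample_936 and Sample_1433). They also include the cKO-/- cerebella with high summed inhibitory neuron markers (Sample_1371, Sample_1379 and Sample_1385). The cKO-/- animals with *Igfbp6* above every control are the same 4. In the cerebellum, fits that adjust for or leave out these libraries are therefore not separate checks. With a covariate for these 7 animals, *Igf2* was the only member called in the cerebellum (0.35, SE 0.052, adjusted p = 0.000614, edgeR quasi-likelihood test). *Igf1* stood at 0.26 (adjusted p = 0.0966), *Igfbp2* at 0.19 (adjusted p = 0.474) and *Igfbp5* at -0.15 (adjusted p = 0.236). Among the animals Sample_1120 to Sample_1219 alone, *Igf2* (0.37, adjusted p = 0.00691) and *Igf1* (0.27, adjusted p = 0.0443, same test) passed, and *Igfbp2* did not (0.23, adjusted p = 0.21). The cKO-/- cerebella in that range were those of Sample_1160 and Sample_1219.

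The same fit was repeated without the 3 cKO-/- cerebella of high summed inhibitory neuron markers, which left 3 animals of that genotype. The cKO+/- animal Sample_1433, whose summed granule cell markers lay within the range of those 3, was kept. *Igf2* was then the 1 member called (0.50, SE 0.102, adjusted p = 0.0111, edgeR quasi-likelihood test), where 3.03% of genes passed. *Igf1* stood at 0.27 (SE 0.071, adjusted p = 0.0509), *Igfbp2* at 0.55 (SE 0.196, adjusted p = 0.143) and *Igfbp5* at -0.11 (SE 0.057, adjusted p = 0.273). *Igfbp3* and *Igfbp6*, which did not pass in either fit, stood at -0.04 and -0.09.

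The cKO-/- mice were also compared with the cKO+/- mice, which carry the same Cre. No member passed in the cerebellum, where 0.413% of genes did, and 2 had an unadjusted p under 0.05. *Igf1* stood at 0.40 (SE 0.142, adjusted p = 0.34), *Igf2* at 0.31 (SE 0.150, adjusted p = 0.549), *Igfbp2* at 0.20 (SE 0.294, adjusted p = 0.893) and *Igfbp5* at -0.17 (adjusted p = 0.656, edgeR quasi-likelihood test). In the hippocampus no member passed either, where 0.718% of genes did, and 3 had an unadjusted p under 0.05. *Igf1r* stood there at -0.12 (SE 0.049, adjusted p = 0.239) and *Igfbp4* at -0.17 (SE 0.110, adjusted p = 0.4, same test).

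Of 12 markers of meninges and fibroblasts, 8 rose in the cerebellum and none fell, among them the collagen gene *Col1a2* (0.45, adjusted p = 4.21e-05) and the sulfate transporter gene *Slc13a4* (0.37, adjusted p = 0.0194, edgeR quasi-likelihood test). Their summed level ranged from 203 to 270.1 CPM in controls, from 209 to 348 in cKO+/- mice and from 222 to 459 in cKO-/- mice, with no marker at 0 in any library. Of 8 microglial markers 4 rose, with summed levels of 131 to 142, 134 to 216 and 129 to 229.7 CPM in the 3 genotypes. Of 12 choroid plexus markers 6 were tested and none passed, with summed levels of 21.6 to 29.6 CPM in controls, 22.9 to 3250 in cKO+/- mice and 22.3 to 3115 in cKO-/- mice. With the levels of the choroid plexus and the meningeal markers as covariates, *Igf2* passed (0.34, SE 0.075, adjusted p = 0.0229) and *Igf1* (0.26, adjusted p = 0.165), *Igfbp2* (0.18, adjusted p = 0.282) and *Igfbp5* (-0.10, adjusted p = 0.387, same test) did not. The part of these cell types in the change of *Igf2* beyond that fit was not tested.

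Of 7 astrocyte markers 3 rose, *Aqp4* by 0.33, *Gfap* by 0.52 and *Gja1* by 0.17 in log2 per allele, with summed levels of 2984 to 3622 CPM in controls, 3418 to 3763 in cKO+/- mice and 3290 to 4561 in cKO-/- mice. Of 4 inhibitory neuron markers tested 2 rose, *Gad2* (0.25, adjusted p = 0.0121) and *Sst* (1.85, adjusted p = 0.0477, edgeR quasi-likelihood test). None of 5 granule cell markers passed, although their summed level had a median of 5454 CPM in controls, 5234 in cKO+/- mice and 4283 in cKO-/- mice. Of 5 markers of hippocampal neurons tested 2 rose, *Wfs1* (0.11) and *Neurod6* (0.25). The mean log2 level of that list was 3.70 in Sample_1385 and 3.43 in Sample_1433, and 2.77 or less in the other cerebella. For the inhibitory neuron list it was 6.96, 5.97, 5.96 and 5.67 in Sample_1385, Sample_1379, Sample_1433 and Sample_933, and 5.23 or less in the others. Whether these libraries carry the calls was not tested. Of 8 oligodendrocyte markers *Cnp* alone rose, and of 10 endothelial markers *Ly6c1* alone passed, with a fall of -0.30. None of 5 Purkinje cell markers and none of 10 mural cell markers passed. The part of these cell types in the changes of the members was not tested.

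In the hippocampus neither ligand passed, and 2 members fell: *Igf1r* and *Igfbp4*. Over all 14339 genes tested 4.44% passed, 2.09% upward and 2.35% downward. The median log2 change per allele was -0.0040 over the 10 members and 0.0017 over all genes.

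*Igf1r* ranged from 74.5 to 85.6 CPM in control hippocampi (median 80.2), from 72.3 to 78.2 in cKO+/- mice (median 75.6) and was 62.6, 67.8, 68.6, 73.0 and 77.2 CPM in the 5 cKO-/- mice. Of these 5, 4 lay below the lowest control. The log2 change per allele was -0.10 (SE 0.024, adjusted p = 0.0196, edgeR's quasi-likelihood test, adjusted by Benjamini-Hochberg). Animal Sample_1160 had 34.9 CPM, and with it the change was -0.17 with a wider error (SE 0.062, adjusted p = 0.214).

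*Igfbp4* ranged from 80.6 to 121 CPM in controls (median 102) and from 63.9 to 97.6 in cKO+/- mice (median 87.1), and was 66.5, 67.1, 76.6, 80.1 and 83.9 CPM in cKO-/- mice. The cKO-/- values overlapped the lowest control, and the log2 change per allele was -0.23 (SE 0.053, adjusted p = 0.0212, edgeR quasi-likelihood test). Animal Sample_1160 had 132 CPM, above every control, and with it the change was -0.13 (SE 0.081, adjusted p = 0.39). As separate groups, no member passed in cKO+/- mice against controls (0.0349% of genes did; 3 members had an unadjusted p under 0.05), and *Igf1r* and *Igfbp4* passed in cKO-/- mice (4.87% of genes did). With all 18 libraries none of the members passed an FDR of 0.05 in edgeR, where 1.72% of genes did, and 2 had an unadjusted p under 0.05.

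*Igf1* stood just short of the threshold. Controls ranged from 6.91 to 9.42 CPM (median 8.07) and cKO+/- mice from 7.42 to 11.1 (median 9.69), and the cKO-/- mice had 9.001, 10.1, 10.3, 12.5 and 12.9 CPM. The log2 change of 0.21 per allele (SE 0.060, 95% interval from 0.08 to 0.33) did not pass (adjusted p = 0.0605, edgeR quasi-likelihood test), but passed in DESeq2 (0.20, adjusted p = 0.0235) and in edgeR without animal Sample_936 (0.24, adjusted p = 0.0288) or Sample_1176 (0.21, adjusted p = 0.0417). No member had hippocampal cKO-/- and control values free of overlap, against 3.65% of all genes.

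*Igf2* had the widest spread of the hippocampal set. Controls ranged from 29.5 to 224 CPM (median 39.1) and cKO+/- mice from 58.9 to 107 (median 85.0), and the cKO-/- mice had 56.4, 75.8, 90.7, 119 and 265 CPM. The log2 change per allele was 0.38 (SE 0.220, 95% interval from -0.08 to 0.84, adjusted p = 0.345, edgeR quasi-likelihood test). Leaving out 1 animal at a time moved it from 0.19, without cKO-/- animal Sample_1385, to 0.62, without control Sample_1129. The highest cKO-/- animal, Sample_1385, had *Ttr* at 4542 CPM. In the 11 libraries with *Ttr* at or under 100 CPM, the 4 controls (29.5 to 44.2 CPM of *Igf2*) lay below the 4 cKO+/- mice (58.9 to 107) and the 3 cKO-/- mice (56.4 to 90.7). The change there was 0.56 (SE 0.161, adjusted p = 0.119, same test), and with the choroid plexus and meningeal covariates over 17 libraries it was 0.12 (adjusted p = 0.842). The share of all genes with such a separation in the 11 libraries was not counted.

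For hippocampal *Igfbp2* the log2 change was 0.03 (95% interval from -0.40 to 0.45, adjusted p = 0.96). *Igf2r*, *Igfbp3*, *Igfbp5*, *Igfbp6* and *Igfbp7* stood at -0.03, 0.17, -0.05, -0.22 and 0.09, all with intervals that include 0. *Igfbp5* was narrow in cKO-/- hippocampi (206.7 to 220.1 CPM), where animal Sample_1160 had 77.2.

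**Figure D3:**
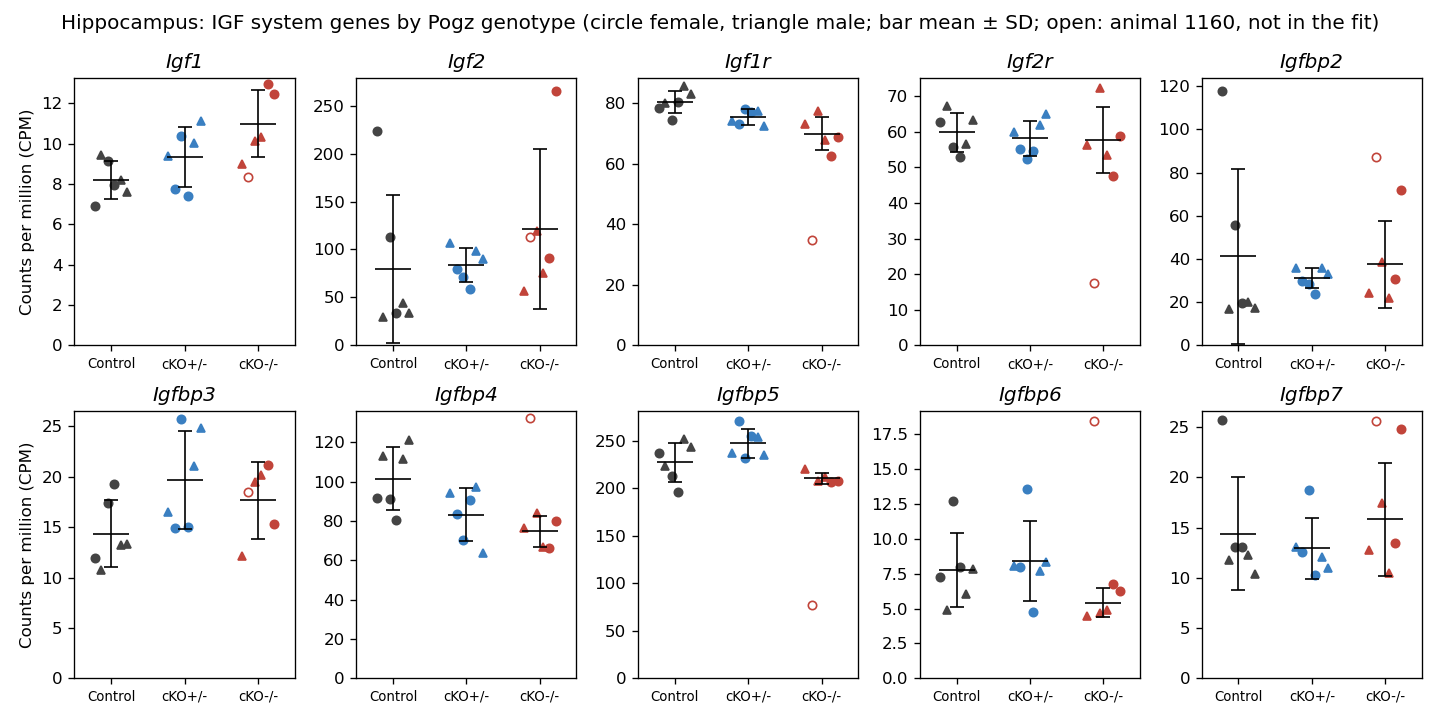
CPM of the 10 genes in 18 hippocampi by *Pogz* genotype, with circles for females, triangles for males, bars for the mean ± SD of the fitted libraries and an open symbol for animal Sample_1160. *Igf1r* and *Igfbp4* step down with allele loss, while control *Igf2* and *Igfbp2* each hold 2 high values.

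The *Igf1r* and *Igfbp4* calls were each lost in 10 of 30 alternative analyses of the hippocampus. Cerebellar *Igf2* was lost in 1 of 30, the comparison of cKO-/- with cKO+/- mice, and cerebellar *Igf1*, *Igfbp2* and *Igfbp5* in 5, 8 and 15. Of each 30, 17 in the hippocampus and 18 in the cerebellum only left out 1 animal. With the covariate for animal numbers hippocampal *Igf1r* stood at -0.06 (adjusted p = 0.768) and *Igfbp4* at -0.17 (adjusted p = 0.615, edgeR quasi-likelihood test). Within animals Sample_1120 to Sample_1219 they stood at -0.04 and -0.20, where Sample_1219 was the only cKO-/- library of the fit. With the choroid plexus and meningeal covariates they stood at -0.07 (adjusted p = 0.601) and -0.17 (adjusted p = 0.559). Without the 6 libraries above 100 CPM of *Ttr*, *Igfbp4* passed (-0.28, adjusted p = 0.0257) and *Igf1r* did not (-0.14, adjusted p = 0.0654). Leaving out control Sample_1190 or cKO-/- animal Sample_1371 or Sample_1379 lost both calls, and leaving out control Sample_1192 lost that of *Igfbp4* (adjusted p = 0.0549). Of 10 endothelial markers 4 rose in the hippocampus, with summed levels of 143 to 169 CPM in controls, 125 to 207 in cKO+/- mice and 162 to 260.2 in cKO-/- mice. Of 8 markers of hippocampal neurons 2 fell, *C1ql2* of the dentate gyrus (-0.45, adjusted p = 0.00729) and *Wfs1* of CA1 (-0.50, adjusted p = 0.000875, edgeR quasi-likelihood test), and the median log2 change of the 8 was -0.08. Their summed level was 5995 to 8606 CPM in controls (median 6766), 5249 to 6683 in cKO+/- mice (median 6342) and 5929 to 6655 in cKO-/- mice (median 6134). Of 10 mural cell, 7 astrocyte and 12 meningeal markers 1 each rose, *Rgs5*, *Aqp4* and *Lum*. The part of these cell types in the *Igf1r* and *Igfbp4* changes was not tested.

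The effect of an allele was then compared between the tissues by an interaction term over 35 libraries, without pairing the tissues of an animal. No member differed at an FDR of 0.05, where 1.49% of genes did, and 3 had an unadjusted p under 0.05, also in DESeq2, which called none. These were *Igfbp4* (hippocampus minus cerebellum -0.39, SE 0.139, adjusted p = 0.181), *Igfbp6* (-0.41, SE 0.170, adjusted p = 0.272) and *Igfbp2* (-0.58, SE 0.273, adjusted p = 0.338, edgeR quasi-likelihood test). With animal as a block no member passed either, and *Igfbp4* stood at -0.41 (adjusted p = 0.0969, edgeR quasi-likelihood test). Without the block, the difference for *Igf2* was -0.20 with a 95% interval from -0.70 to 0.30. For *Igf1* it was -0.15 with an interval from -0.34 to 0.05. A ligand effect called in 1 tissue and not in the other was therefore not shown to differ between them.

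**Figure D4:**
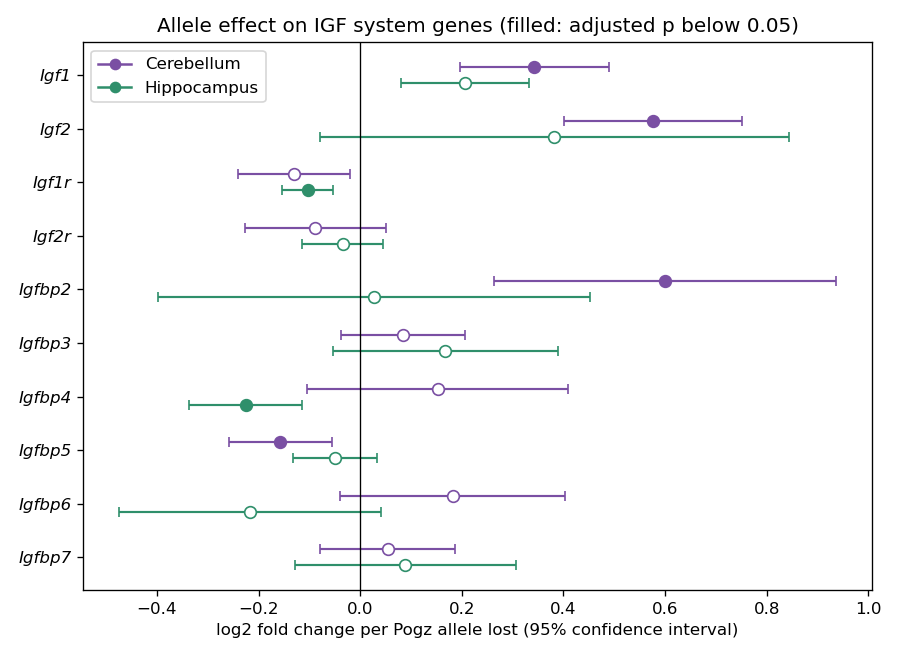
The log2 fold change per *Pogz* allele lost for each of the 10 genes in the cerebellum (18 libraries) and the hippocampus (17 libraries), with 95% confidence intervals and filled symbols where the adjusted p is below 0.05. Among called genes, the cerebellar intervals of *Igf1*, *Igf2* and *Igfbp2* lie above 0, and those of cerebellar *Igfbp5* and hippocampal *Igf1r* and *Igfbp4* below it, while those of cerebellar *Igf1r* and hippocampal *Igf1* also leave out 0 with an adjusted p above 0.05.

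No member differed between the sexes in its allele effect at an FDR of 0.05 in either tissue, by edgeR or DESeq2, and over all genes 0% did in edgeR. In the cerebellum 1 member had an unadjusted p under 0.05, *Igf1r* (males minus females 0.21, SE 0.096, adjusted p = 0.893, edgeR quasi-likelihood test), and in the hippocampus none did.

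Covariation was then read within groups, from deviations of log2 CPM from the mean of each genotype and sex, in 34 relations of *Igf1* or *Igf2* with the other members. After Benjamini-Hochberg adjustment over the 34, 2 passed a 2-sided permutation test within genotype and sex. In the hippocampus *Igf2* and *Igfbp2* deviated together (Pearson r = 0.98, n = 17, p = 0.00184, adjusted p = 0.0313; Spearman rho = 0.97, p = 0.00063). Without the 2 animals farthest from the median of *Igf2*, r was 0.96 (p = 0.00972, adjusted p = 0.165), and without the libraries above 100 CPM of *Ttr* it was 0.66 (n = 8, permutation p = 0.128). Hippocampal *Ttr* ranged from 0.166 to 4557 CPM in the fitted libraries, and the relation was not shown within those at or under 100 CPM. In settings that left animals out, animals then alone in their genotype and sex were dropped too, in either tissue. Without the *Ttr* libraries, 8 of the 11 hippocampal libraries remained. Without the 2 farthest animals, Sample_1385 and Sample_1129, cKO-/- female Sample_1379 was dropped as well. In the cerebellum *Igf2* and *Igfbp2* had r = 0.75 (permutation p = 0.0111, adjusted p = 0.126, n = 18; Spearman rho = 0.66, p = 0.027). Leaving out 1 animal at a time left between 0 and 3 relations, with 0 left without any one of Sample_933, Sample_1160, Sample_1176, Sample_1189, Sample_1219, Sample_1379, Sample_1385 and Sample_1433.

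In the cerebellum *Igf2* and *Igfbp4* deviated together (r = 0.81, n = 18, permutation p = 0.00117, adjusted p = 0.0313; Spearman rho = 0.77, p = 0.00095), although *Igfbp4* did not pass the test of genotype there. Without the 2 farthest animals r was 0.82 (permutation p = 0.00043), and without the *Ttr* libraries it was 0.75 (n = 14, permutation p = 0.0118). Over all genes 21.6% covaried with cerebellar *Igf2*, 7.76% with hippocampal *Igf2*, 14.1% with cerebellar *Igf1* and 6.72% with hippocampal *Igf1* at an unadjusted permutation p under 0.05. At that level the members were *Igf2r*, *Igfbp2*, *Igfbp4* and *Igfbp6* with cerebellar *Igf2*, and *Igfbp2* with hippocampal *Igf2*. With hippocampal *Igf1* they were *Igfbp3* and *Igfbp4*, and with cerebellar *Igf1* there were none. The relation of *Igf1* and *Igf2* did not pass in either tissue (r = 0.27 and -0.14, permutation p = 0.423 and 0.787). None of the 16 relations of *Igf1* with receptors and binding proteins passed, the highest being that with *Igfbp3* in the hippocampus (r = 0.70, permutation p = 0.0171, adjusted p = 0.146). No receptor passed with *Igf2* either. In the cerebellum r was -0.67 for *Igf2r* (permutation p = 0.0394, adjusted p = 0.204) and -0.58 for *Igf1r* (permutation p = 0.138). In the hippocampus it was 0.59 for *Igf2r* (permutation p = 0.0914) and 0.19 for *Igf1r* (permutation p = 0.574).

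**Figure D5:**
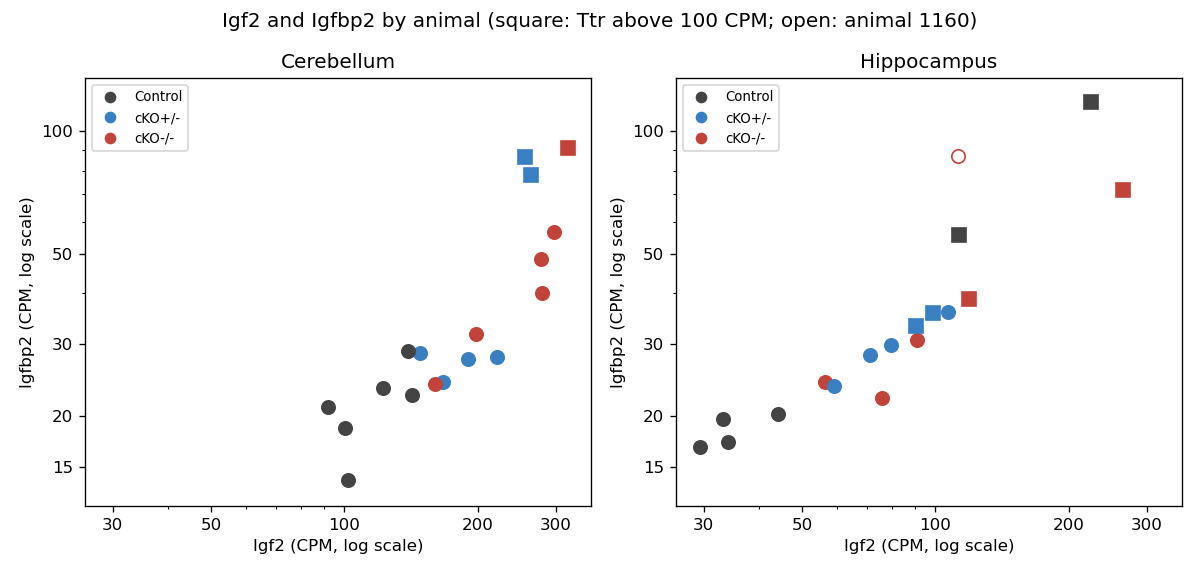
*Igf2* against *Igfbp2* in CPM on log axes, with a symbol per animal coloured by *Pogz* genotype, squares for libraries with *Ttr* above 100 CPM and an open symbol for animal Sample_1160. The 3 cerebellar squares hold the highest *Igfbp2* values, and in the hippocampus controls Sample_1170 and Sample_1129 lie among or above the mutants.

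The same deviations were set against the mean log2 level of marker genes, in 60 relations. Hippocampal *Igf2* followed the meningeal markers (r = 0.84, n = 17, permutation p = 0.00097, adjusted p = 0.0291; Spearman rho = 0.87, p = 0.00177; r = 0.82 without the 2 farthest animals). Cerebellar *Igf2* followed the same markers with r = 0.89 (n = 18, permutation p = 0.0116, adjusted p = 0.072; Spearman rho = 0.82, p = 0.0117; r = 0.80 without the 2 farthest animals). In the cerebellum 4 relations passed: *Igfbp6* with meningeal markers (r = 0.91, adjusted permutation p = 0.0412), and *Igf2* (r = 0.85, adjusted permutation p = 0.0412), *Igfbp2* (r = 0.76, adjusted permutation p = 0.0412) and *Igfbp4* (r = 0.85, adjusted permutation p = 0.0018) with microglial markers. Their Spearman rho was 0.87, 0.84, 0.68 and 0.86, and r without the 2 farthest animals was 0.80, 0.89, 0.73 and 0.80. None of the 6 relations of *Igf1* with these lists passed. The share of all genes that follow these lists was not counted. Omission of single animals or of the *Ttr* libraries was not run for these relations.

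The genes whose log2 CPM was most like that of *Igf2* over all cerebellar libraries, genotype included, were *Pnp* (r = 0.96), *Steap3* (0.94), *Papss2* (0.94), *Col1a2* (0.94) and *Fam114a1* (0.93), of 14026 other genes and over 18 libraries. *Igfbp2* came 82nd, with r = 0.86. In the hippocampus they were *Slc13a4* (r = 0.96), *Lepr* (0.94), *Igfbp2* (0.93), *Pcolce* (0.93) and *Nid2* (0.92), over 17 libraries. For *Igf1* they included *B3glct* (0.92), *Tmx3* (0.91), *Rab11a* (0.89) and *Nxpe4* (0.89) in the cerebellum, and were *Rgs5*, *E430025E21Rik*, *Tspan12*, *Osr1* and *D030028A08Rik* (0.87 to 0.85) in the hippocampus. These lists are descriptions, since the points share genotype, library and depth.

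Genes around the ligands and receptors were read against the shares of all genes that passed, 13.7% in the cerebellum and 4.44% in the hippocampus. For these genes and for the cell type markers only the main fit was read. Whether their calls hold with the animal-number covariate, or between cKO-/- and cKO+/- mice, was not tested. *H19*, which lies 72621 bases from *Igf2* and is controlled by the same imprinting region, had from 1.13 to 1.98 CPM in control cerebella (median 1.44) and from 1.80 to 3.77 in cKO-/- cerebella (median 2.53). It rose by 0.41 per allele (SE 0.127, adjusted p = 0.038, edgeR quasi-likelihood test) and was the 1 gene called of 11 tested among 21 listed neighbours of *Igf2*. In the hippocampus *H19* was under the filter, and none of 8 neighbours tested passed.

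Of 8 genes of the growth hormone axis, 5 were tested in each tissue. *Socs2*, a feedback inhibitor of growth hormone signalling, rose in both: from 8.35 ± 1.38 CPM (SD, n = 6) in control to 12.96 ± 3.52 in cKO-/- cerebella (log2 change per allele 0.32, adjusted p = 0.0139), and from 10.5 ± 2.25 to 14.1 ± 1.62 in the hippocampus (0.23, adjusted p = 0.0176, edgeR quasi-likelihood test). *Ghr*, the growth hormone receptor gene, rose in the cerebellum (0.30, adjusted p = 0.0229) and stood at 0.09 in the hippocampus (adjusted p = 0.425).

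Of 24 kinases, phosphatases and targets downstream of the receptor, 1 passed in the cerebellum and none in the hippocampus. It was *Foxo1*, a transcription factor restrained by AKT, with a log2 change of -0.19 per allele lost (adjusted p = 0.0175, edgeR quasi-likelihood test). None of 9 adaptor genes tested passed in either tissue. *Insrr*, the insulin receptor-related receptor gene, fell in the cerebellum by 0.68 in log2 per allele (adjusted p = 0.00622) from 2.35 ± 0.622 to 0.927 ± 0.522 CPM (SD, n = 6 each).

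Of 5 genes for proteases that cleave binding proteins and their inhibitors, 2 fell in the hippocampus. These were *Htra1*, a serine protease gene (-0.20, SE 0.047, adjusted p = 0.0229), and *Stc2*, which encodes an inhibitor of the IGFBP-cleaving protease PAPP-A (-0.27, SE 0.073, adjusted p = 0.0428, edgeR quasi-likelihood test). In the cerebellum none of 3 tested passed. *Igfbp1* was under the filter in both tissues, at 0.723 ± 0.289 CPM in control cerebella and 0.166 ± 0.075 in control hippocampi (SD, n = 6 each).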

How the data were processed

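Poly(A) RNA (TruSeq libraries, RIN above 8.5) from the cerebellum and hippocampus of 18 mice was analysed. The deposited files hold raw read counts per gene that the authors made after alignment with STAR 250a. The submitters' notes name mm9, whereas 99.86% of 23084 matched symbols overlap their RefSeq gene at the deposited coordinates on GRCm38. The counting tool's strand setting is not given in the sources used here.

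The filter kept genes with more than 1 CPM in 6 or more libraries (14027 in the cerebellum, 14339 in the hippocampus). edgeR 4.0.16 (R 4.3.3) with TMM factors fitted sex and the number of *Pogz* alleles lost by quasi-likelihood, with Benjamini-Hochberg adjustment over all genes and an FDR of 0.05. CPM used TMM-scaled libraries, and log2 CPM a prior count of 2. Animal Sample_1160 was left out of the hippocampal fit after filtering. The alternatives used edgeR under other settings and DESeq2 1.42.0. Covariation used 100000 permutations within genotype and sex. The members and gene lists were chosen with earlier results of these data known. The genes named are the members, the genes most alike to each ligand, the called genes of the pathway and neighbour lists, and *H19*; *Igfbp1*, *Ttr*, *Gabra6* and the cell-type markers are named where a result turns on them. One gene that this rule would name is not reported here. On simulated counts with 200 well-counted genes changed 1.5-fold per allele, 194 were recovered in the cerebellum, 196 in the hippocampus and 182 for the tissue difference. In the same order, 7, 10 and 10 unchanged genes were called. Smaller changes, such as those of most members, were not simulated. Animal numbers in the labels pair the tissues, which the main fits between tissues did not use. Deviations in the same animal correlated with a median r of 0.22 (-0.15 to 0.44, 17 animals), against -0.07 between animals.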

Additional observations from a re-analysis of the deposited data

Results flagged for a closer look

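In the fitted libraries, 5 of 60 groups held an animal far from the rest of its group, where chance flags about 1 in 20. In control cerebella *Igfbp4* was 18.9 CPM in animal Sample_1192 (others 7.73 to 11.7), *Igfbp5* was 387 CPM in animal Sample_1170 (others 235 to 285) and *Igfbp7* was 29.4 CPM in animal Sample_1190 (others 18.99 to 22.4). In hippocampi *Igfbp7* was 25.7 CPM in control Sample_1129 (others 10.4 to 13.1), whose *Ttr* was 4557 CPM, and 18.7 CPM in cKO+/- animal Sample_1120 (others 10.3 to 13.1).

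Over all 6 cKO-/- hippocampi, animal Sample_1160 lay apart for 4 genes: *Igf1r* at 34.9 CPM (others 62.6 to 77.2), *Igfbp4* at 132 CPM (others 66.5 to 83.9), *Igfbp5* at 77.2 CPM (others 206.7 to 220.1) and *Igfbp6* at 18.45 CPM (others 4.46 to 6.78). In the same group *Igf2* was 265 CPM in animal Sample_1385 (others 56.4 to 119), whose *Ttr* was 4542 CPM.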

How the results depend on the processing

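Of 257 alternative values for genes that passed, 201 still passed in the same direction, 56 no longer passed and 0 reversed. The 4 cerebellar calls became 1 for cKO+/- against control, 1 with the animal-number covariate, 2 within animals Sample_1120 to Sample_1219, 1 with marker covariates, 1 without the 3 cerebella of high inhibitory neuron markers and 0 for cKO-/- against cKO+/-, and all genes called became 48, 308, 277, 299, 425 and 58 of 1916. The 2 hippocampal calls became 0 for cKO+/- against control, with the animal-number covariate, with marker covariates, with all 18 libraries and for cKO-/- against cKO+/-. They became 1 without libraries above 100 CPM of *Ttr*. In the same order, all genes called became 5, 68, 82, 246, 103 and 128 of 636, and 1056 in DESeq2. Within animals Sample_1120 to Sample_1219 the hippocampal fit held Sample_1219 as its only cKO-/- library, and its calls are not counted here. Leaving out 1 animal gave 2 to 4 calls in the cerebellum and 0 to 3 in the hippocampus, 5 to 8 between control tissues, 0 between tissues or sexes, and 0 to 3 covarying pairs. The 2 covarying pairs became 5 with deviations from genotype means, 1 with all 18 hippocampi, 1 without the 2 farthest animals and 0 without the *Ttr* libraries. With animal as a replicate block, 0 members differed between tissues in allele effect (*Igfbp4* -0.41, adjusted p = 0.0969) and 7 between control tissues, so the pairing changed no call of a member; the tissue difference over all genes gave 338 calls, 337 in DESeq2, 10 with the animal-number covariate and 95 without the *Ttr* libraries, against 203. Uncalled values that reversed were, in the cerebellum, *Igfbp4* -0.14 and *Igfbp6* -0.083 (animal-number covariate); *Igf2r* 0.060, *Igfbp3* -0.033, *Igfbp4* -0.20 and *Igfbp6* -0.25 (Sample_1120 to Sample_1219); *Igf1r* 0.0014, *Igf2r* 0.079, *Igfbp3* -0.037, *Igfbp4* -0.24 and *Igfbp6* -0.27 (marker covariates); *Igf2r* 0.046, *Igfbp3* -0.039 and *Igfbp6* -0.087 (without the 3 cerebella); and *Igfbp7* -0.025 (cKO-/- against cKO+/-). In the hippocampus they were *Igfbp2* -0.079 (no sex term), -0.15 (cKO+/-), -0.091 (marker covariates) and -0.11 to 0.27 with 1 animal left out; *Igfbp5* 0.12, *Igfbp6* 0.14 and *Igfbp7* -0.13 (cKO+/-); *Igfbp3* -0.15 (cKO-/- against cKO+/-); and *Igf2r* 0.0022 (animal-number covariate) and 0.042 (Sample_1120 to Sample_1219). The tissue difference of *Igf2* was 0.0067 without the *Ttr* libraries and -0.36 to 0.070 with 1 animal left out, and the control level of *Igfbp2* was -0.16 without them. The causes were not tested. The fits without *Ttr* libraries, without the 3 cerebella and of cKO-/- against cKO+/- were chosen after seeing the data.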
